A study of Drosophila melanogaster with 6 samples.

Results

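The under-replicated windows described here are the 259 different 10 kb windows of the arms of chromosome 3 (104 on 3L and 155 on 3R) that the study listed as under-replicated in salivary glands of its histone control. They were taken by position from a list of 808 arm windows, and all listed windows, pericentric ones included, number 2189. A block of 28 listed windows on 3L (dm6 coordinates 15200001 to 15480000) and one of 29 windows on 3R (16650001 to 16980000) were left out by the same rule and are not described. Genomic DNA of salivary glands was sequenced in 3 genotypes with 2 libraries per genotype. All larvae carried the deletion of the endogenous histone gene cluster in the combination ΔHisC, twi-GAL4 over ΔHisC, UAS-2xEYFP, and their replication-dependent histones came from a transgenic array. The array was wild type in HWT, carried arginine in place of lysine 9 of histone H3 in H3K9R, and arginine in place of lysine 16 of histone H4 in H4K16R. Replication-independent variants such as H3.3, and H4 encoded outside the cluster, kept their lysines. The glands came from female wandering larvae of the last instar, in pools of 25 glands, and 20 ng of DNA went into each library. Values are reads in each window normalized to the reads of the library (RPM), a relative DNA copy number. DNA reads hold no expression marker, so the labelled tissue could not be checked against one.

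Salivary gland cells of Drosophila larvae copy their genome again and again without dividing, and the copies stay aligned as polytene chromosomes. Some sequences replicate so late that a new round begins before they are finished, and these end up under-represented. They include the DNA around the centromeres and domains within the arms known as intercalary heterochromatin. The SuUR protein slows replication forks in such domains, and copy number therefore falls gradually from the edges of a domain towards its middle. Lysine 9 of H3 is the residue whose methylation marks pericentric heterochromatin and binds HP1a, while acetylated lysine 16 of H4 marks active chromatin.

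Each average of a genotype is a sum of whole reads divided by the totals of 2 libraries, and the reads of the single libraries were derived from it. The libraries of a genotype are called deeper and shallower, because replicate numbers cannot be read from an average. Library totals ran from 18681787 to 26685461 reads, and a member window held a median of 777 to 1243 reads per library, which gives a counting error of 2.84% to 3.59%. Over 258 members, libraries of the same genotype differed by a median of 0.07 (HWT), 0.07 (H3K9R) and 0.06 (H4K16R) on the log2 scale. HWT reads were used to choose the windows, so low values in HWT are not a finding. H3K9R/HWT and H4K16R/HWT share the HWT libraries, and H3K9R/H4K16R shares the libraries of both mutants with them.

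The following segments show what the extremes of the list look like, one from the middle of the window with the lowest and one from the window with the highest H3K9R/HWT ratio on each arm. They are plus-strand dm6 sequence, 200 bases each, and capitals mark runs of at least 5 A or 5 T.
3L 18354901-18355100, in the lowest window of 3L: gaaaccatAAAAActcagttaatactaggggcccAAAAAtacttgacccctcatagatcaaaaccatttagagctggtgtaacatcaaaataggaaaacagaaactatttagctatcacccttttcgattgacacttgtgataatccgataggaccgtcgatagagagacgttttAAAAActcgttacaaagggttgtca
3L 54901-55100, in the highest window of 3L: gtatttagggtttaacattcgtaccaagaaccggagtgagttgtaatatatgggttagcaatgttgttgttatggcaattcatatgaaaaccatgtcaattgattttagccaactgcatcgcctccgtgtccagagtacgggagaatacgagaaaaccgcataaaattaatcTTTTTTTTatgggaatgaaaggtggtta
3R 28124901-28125100, in the lowest window of 3R: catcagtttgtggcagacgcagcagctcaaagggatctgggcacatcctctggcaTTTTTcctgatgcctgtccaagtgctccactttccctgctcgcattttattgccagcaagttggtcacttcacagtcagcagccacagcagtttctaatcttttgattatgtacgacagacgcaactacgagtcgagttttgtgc
3R 7704901-7705100, in the highest window of 3R: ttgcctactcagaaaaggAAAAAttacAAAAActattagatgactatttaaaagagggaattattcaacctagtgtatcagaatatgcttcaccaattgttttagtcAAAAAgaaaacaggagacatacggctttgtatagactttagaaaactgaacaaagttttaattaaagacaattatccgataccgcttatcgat
The segments of the lowest windows are intergenic single-copy DNA with 37.5% and 49.0% GC. That of the highest 3L window, with 37.5% GC, lies between genes near the telomere. That of the highest 3R window is retrotransposon sequence with 30.5% GC, in which only 66.3% of the 100-base words are found at a single place of the assembly. Such a run of AAAAA or TTTTT, which covers both strands, stood in the middle 200 bases of 73.0% of the 259 members and of 61.3% of the 4768 unlisted 10 kb windows of the chromosome 3 arms.

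Copy number of the chromosome 3 windows was lower in H3K9R than in HWT, and that of H4K16R lay at the level of HWT. The median over the 259 windows was 47.1 and 47.5 RPM in the deeper and the shallower HWT library, 40.9 and 41.6 RPM in those of H3K9R, and 46.6 and 47.0 RPM in those of H4K16R. Both H3K9R libraries lay below the other 4, whose medians fell within 1 RPM of each other. H3K9R/HWT, as the log2 ratio of the averages, had a median of -0.26 (0.836-fold), with quartiles of -0.37 and -0.14, and 236 windows lay below 0 against 23 above. H4K16R/HWT had a median of 0.00, and 124 windows lay below 0 against 135 above. The comparison that does not use HWT, H3K9R/H4K16R, gave -0.26, with 241 windows (93.1%) below 0. Over the 4 pairs of libraries the median over windows of the log2 ratio ran from -0.26 to -0.25 for H3K9R/HWT and from -0.01 to 0.01 for H4K16R/HWT. The exact two-sided permutation test on the library medians, 2 against 2, gave p = 0.33 for each of the 3 comparisons, which is the smallest p this design allows.

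Both H3K9R libraries lay below both HWT libraries in 217 of the 259 windows (83.8%), where 28.1% of all listed windows did so, and above them in 13 windows (5.02%), against 61.5% of all listed windows. Both H4K16R libraries lay below both HWT libraries in 55 windows (21.2%, 19.8% of all listed) and above in 62 (23.9%, 37.0% of all listed). Most listed windows are pericentric, and limma called 79.2% of those higher in H3K9R. With limma at an adjusted p under 0.001, 37 members were lower in H3K9R than in HWT (14.3%, against 7.17% of the 2177 listed windows tested) and 5 were higher (1.93%, against 50.8%). Among the listed arm windows of 2L, 2R and X, 15.7% were called lower and 3.46% higher. Both H3K9R libraries lay below both HWT libraries in 60.6% of those arm windows and above them in 11.4%. At an adjusted p under 0.05 by limma, 45.7% of them were lower and 5.89% higher in H3K9R than in HWT. No member was called in H4K16R in either direction by limma (0.138% of all listed windows lower, 1.29% higher), while 13 members were lower and 11 higher at an unadjusted p under 0.05 (6.84% and 21.9% of all listed). limma-trend called 1 member higher in H4K16R. Between H3K9R and H4K16R, 37 members were lower in H3K9R (7.58% of all listed) and 5 higher (48.2% of all listed), and both H3K9R libraries lay below both H4K16R libraries in 221 members (85.3%, 30.5% of all listed) and above them in 13 (59.7% of all listed). At an adjusted p under 0.05, 177 members were lower (21.4% of all listed) and 8 higher (58.2%) in H3K9R than in HWT, 178 were lower than in H4K16R (23.2%), and H4K16R had 2 lower (2.76%) and 3 higher (11.9%) than HWT. The count of 37 against HWT was 13 without the deeper HWT library, 16 without the shallower HWT library, 16 without the deeper H3K9R library and 11 without the shallower H3K9R library.

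RPM is a share of all reads of a library, so a rise elsewhere lowers it in every arm window. Scaling each library to those listed arm windows whose HWT RPM was in the top 10% added 0.14 to log2 RPM in H3K9R and at most 0.01 in the other genotypes, which left a member median of -0.12 for H3K9R/HWT and 13 windows called lower. Leaving the reads of listed pericentric windows out of the totals left a median of -0.21. The ratios below are on the RPM scale, and differences between members do not depend on it.

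On 3L the library medians were 36.5 and 34.6 RPM in HWT, 28.0 and 28.3 RPM in H3K9R, and 35.7 and 35.6 RPM in H4K16R. On 3R they were 52.0 and 52.0 RPM in HWT, 44.8 and 45.0 RPM in H3K9R, and 50.9 and 51.5 RPM in H4K16R. The groups of H3K9R and HWT libraries did not overlap on either arm. The median H3K9R/HWT log2 ratio was -0.31 on 3L (0.805-fold) and -0.24 on 3R (0.844-fold), a difference of -0.07, which was -0.02 as a difference of means over windows and -0.03 without the deeper H3K9R library. The exact permutation test took another quantity, the 3L minus 3R difference of log2 median RPM in each library. This was -0.68 and -0.67 in H3K9R and -0.51 and -0.59 in HWT (exact permutation p = 0.33, the smallest possible). Of the 37 windows called lower, 25 were on 3L (24% of its windows) and 12 on 3R (7.74%), while at an adjusted p under 0.05 the shares were 72.1% and 65.8%. Against the listed windows of the other arms, the chromosome 3 median of the ratio was lower by 0.10 on the log2 scale. The tested difference of log2 median RPM in each library was 0.29 and 0.33 in H3K9R and 0.34 and 0.34 in HWT (exact permutation p = 0.33, and 0.67 with the chromosome tips left out). The chromosome 3 median of the ratio differed by 0.03 from that of 2L, by -0.14 from that of 2R and by -0.20 from that of X. Tests on the per-library differences of log2 median RPM gave exact permutation p = 1.0, 0.33 and 0.33.

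The 259 windows formed 17 stretches of adjoining windows, 6 on 3L and 11 on 3R, between 20 and 260 kb long with a median of 170 kb, 2.59 Mb in all. They overlap 143 annotated genes, of which 82 are protein-coding, and each stretch is called here by its longest protein-coding gene. The median H3K9R/HWT log2 ratio was below 0 in 14 stretches, of which 12 were below 0 in every pair of libraries, and above 0 in 3. Scaled to the top 10% of arm windows, 11 stretches were below 0, and the dpr11 stretch moved from -0.13 to 0.01. Outside the 3L tip, the H4K16R/HWT medians of stretches ran from -0.11 to 0.10.

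**Figure D1:**
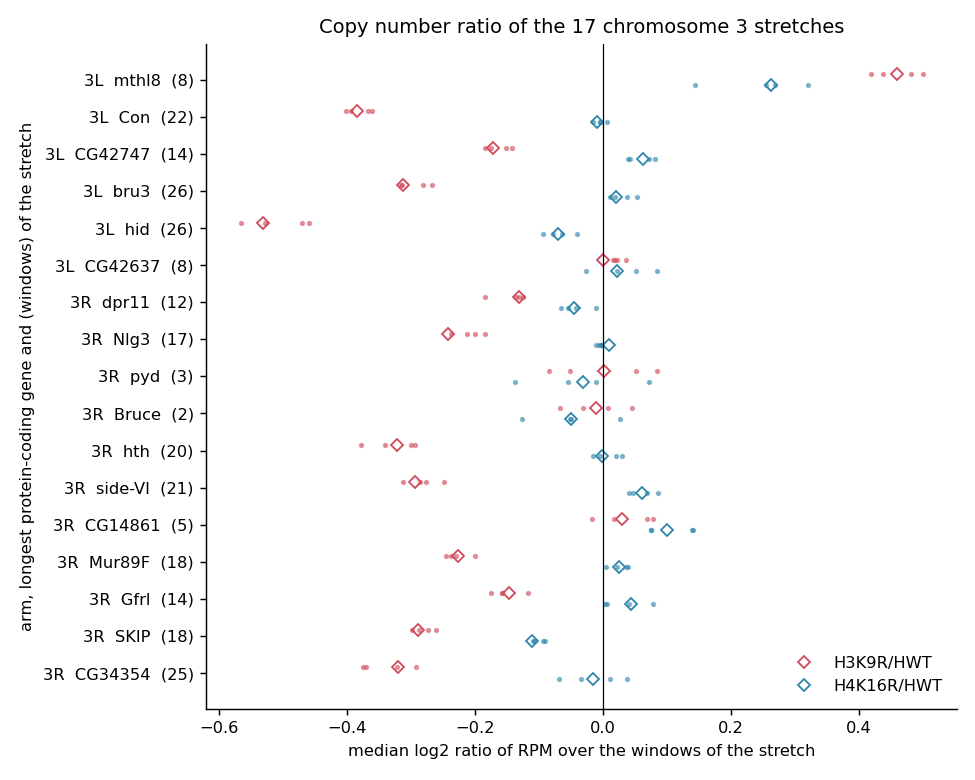
Median log2 ratio of RPM (x axis) over the windows of each of the 17 stretches (y axis, with the arm, the longest protein-coding gene and the number of windows), H3K9R/HWT in red and H4K16R/HWT in blue. Diamonds are ratios of the averages and dots the 4 pairs of single libraries, over windows with at least 1 RPM in HWT, which leaves out 1 window of the 3L tip. 14 of the red diamonds lie below 0, the lowest at -0.53 in the hid stretch, and the only far one above 0 is the 3L tip at 0.46.

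The lowest ratios were in the hid stretch, 3L 18180001 to 18440000, which holds grim, rpr, skl and part of hid. These are genes of short proteins that start apoptosis by antagonising the inhibitor of apoptosis proteins. Median RPM over the 26 windows of the stretch was 31.5 and 30.7 in the HWT libraries, 22.2 and 21.2 in the H3K9R libraries, and 29.2 and 29.1 in the H4K16R libraries. All 26 windows were lower in both H3K9R libraries than in both HWT libraries, with window ratios from -0.85 to -0.22 on the log2 scale. The stretch median was -0.53 (0.692-fold) for H3K9R/HWT, between -0.57 and -0.46 over the library pairs, and -0.41 for H3K9R/H4K16R. The hid stretch held 16 of the 37 windows called lower against HWT. Its H4K16R/HWT median was -0.07, and 11 of 26 windows were lower in both H4K16R libraries.

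The window with the lowest ratio of all members, 3L 18350001 to 18360000, is intergenic single-copy DNA, and the first sequence printed above is its middle. It measured 25.0 and 24.0 RPM in the HWT libraries, 13.6 and 13.6 RPM in the H3K9R libraries, and 22.8 and 24.6 RPM in the H4K16R libraries. Both H3K9R libraries were thus far below the other 4. The ratio of averages was 0.556-fold against HWT (limma log2 difference -0.80, SE 0.07, adjusted p = 9.21e-06) and 0.574-fold against H4K16R (limma adjusted p = 1.35e-05). Next on 3L came 18370001 to 18380000 with 0.600-fold and 18310001 to 18320000 with 0.629-fold (limma adjusted p = 2.46e-05 and 2.03e-05), both intergenic in the same stretch. The lowest H4K16R/HWT ratio on 3L was also in this stretch, at 3L 18290001 to 18300000 over CG13700 and CG5103. There HWT measured 24.0 and 22.5 RPM, H4K16R 18.8 and 19.4 RPM and H3K9R 16.6 and 15.3 RPM. H4K16R lay between the other genotypes, at 0.822-fold of HWT with a limma adjusted p of 0.0410, which misses the threshold of 0.001.

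The Con stretch, 3L 4870001 to 5090000, is named for connectin, a leucine-rich repeat cell adhesion protein, and also holds most of Dnah3, a dynein heavy chain gene. Its median RPM over 22 windows was 36.3 and 34.9 in HWT, 27.3 and 26.7 in H3K9R, and 35.7 and 35.0 in H4K16R. H3K9R was lower in both libraries in 21 windows and higher in both in 1, with a median log2 ratio of -0.39, and 7 windows were called lower. The bru3 stretch, 3L 13550001 to 13810000, lies almost wholly within bru3, which encodes an RNA-binding protein of the Bruno family. Median RPM over its 26 windows was 23.4 and 24.8 in HWT, 18.0 and 20.2 in H3K9R, and 25.6 and 23.3 in H4K16R. The median log2 ratio was -0.31 with 24 windows lower in both H3K9R libraries, but only 2 were called lower. The CG42747 stretch, 3L 6270001 to 6410000, stood at higher RPM, with medians of 56.0 and 58.7 in HWT, 50.2 and 52.0 in H3K9R and 61.3 and 60.0 in H4K16R. Its median log2 ratio was -0.17 for H3K9R/HWT and 0.06 for H4K16R/HWT, and none of its 14 windows was called.

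On 3R the lowest stretch medians were those of hth (-0.32), CG34354 (-0.32), side-VI (-0.29) and SKIP (-0.29). The hth stretch, 3R 10450001 to 10650000, spans the gene of homothorax, a homeodomain protein of the TALE class. Median RPM over its 20 windows was 50.4 and 52.6 in HWT, 38.3 and 40.2 in H3K9R, and 49.6 and 51.9 in H4K16R. H3K9R was lower in both libraries in 19 windows, of which 4 were called, and no window was lower in both H4K16R libraries. The longest stretch of 3R is that of CG34354, 3R 28010001 to 28260000, where median RPM over 25 windows was 35.9 and 36.0 in HWT, 28.2 and 29.4 in H3K9R, and 36.3 and 35.8 in H4K16R. All 25 windows were lower in both H3K9R libraries, and 7 were called lower.

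The lowest window of 3R, 3R 28120001 to 28130000, is intergenic DNA of the CG34354 stretch, and its middle was printed above. It measured 27.9 and 24.8 RPM in HWT, 16.6 and 15.7 RPM in H3K9R, and 25.5 and 26.2 RPM in H4K16R. The HWT and H4K16R libraries overlapped while both H3K9R libraries lay below them, at 0.613-fold of HWT (limma log2 difference -0.67, SE 0.07, adjusted p = 6.26e-05). Next came 28190001 to 28200000 with 0.633-fold and 28160001 to 28170000 with 0.637-fold, both in introns of CG34354 (limma adjusted p = 0.000143 and 3.09e-05). The lowest H4K16R/HWT ratio of 3R, 0.837-fold, was at 3R 28150001 to 28160000 in the same gene, where the H4K16R libraries measured 28.1 and 23.0 RPM against 30.7 and 30.4 RPM in HWT (limma adjusted p = 0.171).

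The side-VI stretch, 3R 10930001 to 11140000, is named for a cell surface protein of the immunoglobulin superfamily and had the lowest HWT window of 3R. That window, 3R 11010001 to 11020000 in the side-VI gene, measured 20.0 and 20.4 RPM in HWT, 19.3 and 18.1 RPM in H3K9R, and 23.3 and 22.9 RPM in H4K16R. Both H4K16R libraries lay above the other 4 there. The median RPM of the stretch was 29.6 and 30.5 in HWT, 26.2 and 24.5 in H3K9R, and 32.5 and 30.5 in H4K16R. H3K9R was lower in both libraries in 20 of 21 windows, and none was called against HWT. The highest H4K16R/HWT ratio of 3R, 1.17-fold at 3R 10990001 to 11000000, was in side-VI too (26.7 and 26.3 RPM against 23.4 and 21.8 RPM in HWT, limma adjusted p = 0.0728).

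The SKIP stretch, 3R 22120001 to 22300000, lies over the gene of a protein that interacts with the Shal potassium channel, and was the one stretch where both H4K16R libraries lay below both HWT libraries in most windows. Median RPM over its 18 windows was 60.0 and 59.0 in HWT, 49.0 and 49.2 in H3K9R, and 55.4 and 56.1 in H4K16R. H3K9R was lower than HWT in both libraries in all 18 windows, and H4K16R in 13, with H4K16R/HWT at -0.11 and between -0.11 and -0.09 over library pairs. None of these windows was called in H4K16R, and 1 was called lower in H3K9R. In the other direction, both H4K16R libraries lay above both HWT libraries in most windows of some stretches. These were 4 of 5 windows in the CG14861 stretch, 8 of 14 in that of CG42747 and 11 of 21 in that of side-VI.

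The remaining stretches of 3R held no window called lower. The Nlg3 stretch, over the neuroligin genes Nlg3 and Nlg1, had an H3K9R/HWT median of -0.24 (log2) over 17 windows. The Mur89F stretch, which holds a mucin-related gene and the immunoglobulin genes beat-IIa and beat-IIb, had -0.23 over 18 windows. The ratio was -0.15 over 14 windows of the stretch of Gfrl, a homologue of GDNF receptors, and -0.13 over 12 windows of the dpr11 stretch. The short stretches lay near 0: pyd at 0.00 over 3 windows, Bruce at -0.01 over 2 and CG14861 at 0.03 over 5. The CG14861 stretch, highest of 3R, measured 54.7 and 56.7 RPM in HWT, 58.0 and 56.7 RPM in H3K9R, and 59.8 and 60.6 RPM in H4K16R. Its HWT and H3K9R libraries were not separated.

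**Figure D2:**
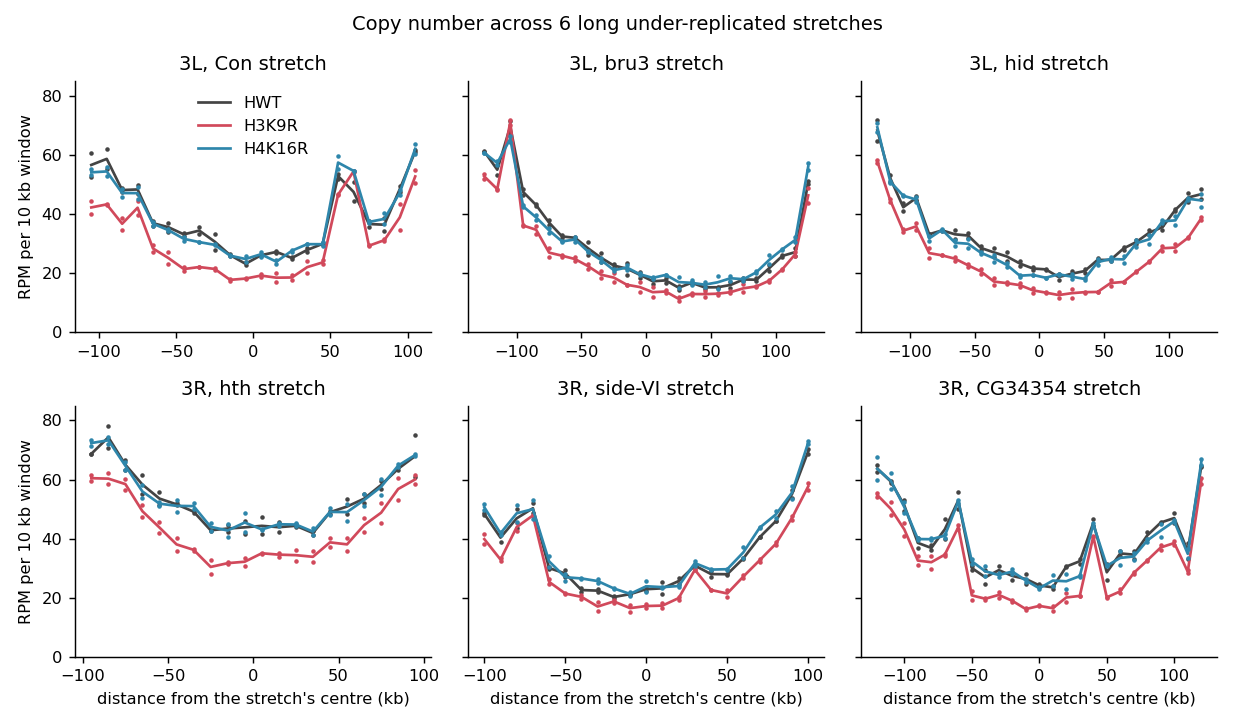
RPM per 10 kb window (y axis) by distance from the centre of the stretch in kb (x axis) in the 6 longest stretches, 3 on each arm, with lines through the averages of HWT (grey), H3K9R (red) and H4K16R (blue) and dots for single libraries. The H3K9R line runs below the others through most of each stretch, and the HWT and H4K16R lines cross each other. Narrow peaks in the side-VI, CG34354, Con and bru3 stretches, such as that at 54.4 RPM in H3K9R in the Con stretch, are windows with transposons.

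H3K9R/HWT was lower the farther a window lay from the ends of its stretch, while H4K16R/HWT was near 0 at every distance. Over the 251 windows outside the 3L tip, the median H3K9R/HWT log2 ratio was -0.14 at 0 to 10 kb from the nearer end (61 windows), -0.23 at 20 to 30 kb (53 windows) and -0.28 at 40 to 60 kb (70 windows). It was -0.38 at 70 to 90 kb (47 windows of 9 stretches) and -0.50 at 100 to 120 kb (20 windows of 5 stretches). The share of windows called lower went from 3.28% in the first of these groups to 40.0% in the last. Scaled to the top 10% of arm windows, the same medians were 0.00, -0.09, -0.14, -0.24 and -0.36. H4K16R/HWT stayed between -0.01 and 0.02 in all 5 groups, and H3K9R/H4K16R went from -0.19 to -0.46.

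The RPM behind these ratios fell in every genotype towards the middle of stretches. In HWT the median went from 61.3 RPM at 0 to 10 kb to 22.7 RPM at 100 to 120 kb, in H3K9R from 55.0 RPM to 16.1 RPM, and in H4K16R from 62.1 RPM to 21.4 RPM. In 12 of the 15 stretches of at least 5 windows the middle was lower relative to the edge in H3K9R than in HWT, and in 10 of 15 it was lower in H4K16R than in HWT. Set against H4K16R, the middle was lower in H3K9R in 12. In the CG34354 stretch, for example, the middle stood at 0.377 of the edge in HWT, 0.301 in H3K9R and 0.358 in H4K16R. Of the 37 windows called lower, 34 lay at least 30 kb from both ends, as did 165 of all 259 members. The H3K9R/HWT folds of the 37 windows ran from 0.556 to 0.761 with a median of 0.692, and their H4K16R/HWT folds from 0.822 to 1.10.

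**Figure D3:**
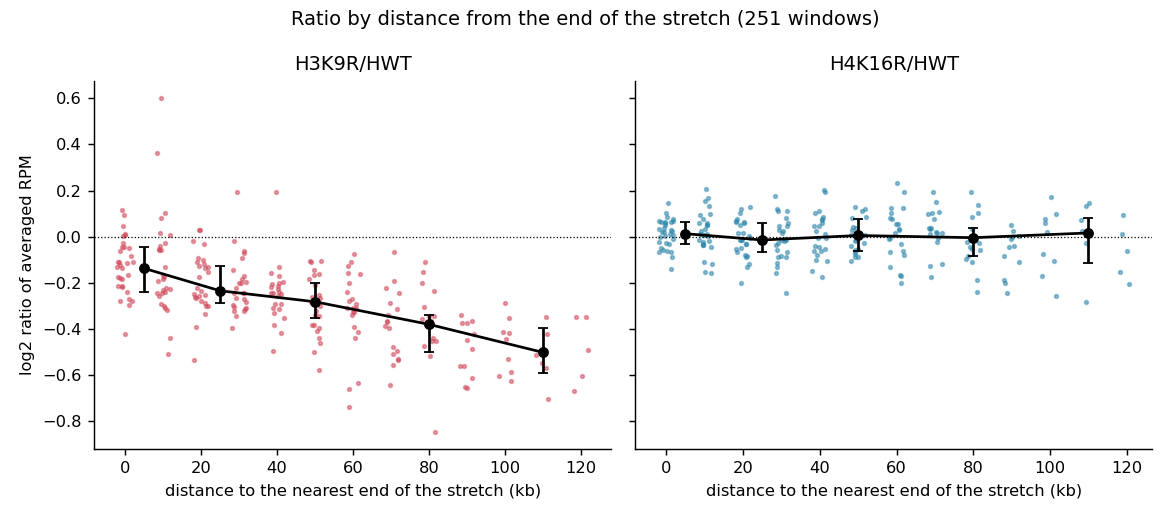
Log2 ratio of averaged RPM (y axis) against the distance in kb from the window to the nearer end of its stretch (x axis, points shifted sideways a little for sight), for H3K9R/HWT (left) and H4K16R/HWT (right) over 251 windows. Black points are medians of distance groups with bars from the lower to the upper quartile. The medians fall from -0.14 to -0.50 on the left and stay between -0.01 and 0.02 on the right.

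In the 165 windows at least 30 kb from both ends the median H3K9R/HWT ratio was -0.32 (log2), and those nearer to an end (94 windows) had -0.14, a difference of -0.19 (exact permutation p = 0.33, the smallest possible). For H4K16R/HWT the difference was -0.01 (exact permutation p = 0.67), and between the mutants, H3K9R/H4K16R, it was -0.17 (exact permutation p = 0.33). These tests took the inner minus outer difference of log2 median RPM in each library. This was -0.65 and -0.71 in H3K9R, -0.42 and -0.54 in HWT, and -0.51 and -0.55 in H4K16R. Within single stretches, inner windows were lower than outer ones in 11 of the 12 stretches that had both, 9 of them in every library pair. The median difference within a stretch was -0.10, from -0.27 in the hid stretch to 0.05 in the Gfrl stretch, the exception. For H4K16R/HWT the inner windows were lower in 7 of 12 stretches, with a median of -0.01.

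Distance and level could not be told apart, since the inner windows are also those of lowest copy number. By quartile of H4K16R RPM, which enters neither side of H3K9R/HWT, the median H3K9R/HWT ratio was -0.42 in the lowest quartile, -0.31 and -0.22 in the next ones, and -0.17 in the highest. Windows called lower made up 34.9%, 19.0%, 4.84% and 0% of them. Across the 251 windows, the H3K9R/HWT ratio had a Pearson's r of -0.62 (Spearman's rho -0.65) with the distance from an end, and of 0.53 (rho 0.61) with H4K16R RPM. Within the arms, r with the distance was -0.59 on 3L and -0.63 on 3R. For GC content r was 0.29 (rho 0.26) on 3L and -0.20 (rho -0.18) on 3R, which pooled to 0.06 (rho 0.02). These are descriptions across neighbouring windows that share the same 6 libraries.

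The end of 3L went the other way. The stretch of its first 8 windows, 3L 1 to 80000, held 4 of the 5 members that rose in H3K9R by limma, and the median log2 ratio of its 7 windows with at least 1 RPM in HWT was 0.46 in H3K9R (0.42 to 0.50 over library pairs) and 0.26 in H4K16R (0.14 to 0.32). The largest rise was at 3L 50001 to 60000, which overlaps the gene CG43149 and holds the second sequence printed above. It measured 36.5 and 33.5 RPM in HWT, 67.6 and 67.8 RPM in H3K9R, and 46.0 and 44.6 RPM in H4K16R. The 3 genotypes did not overlap, and H4K16R lay between the others. H3K9R was 1.94-fold of HWT (limma log2 difference 0.93, SE 0.07, adjusted p = 3.71e-06) and 1.49-fold of H4K16R (limma adjusted p = 8.65e-05).

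The neighbouring windows showed the same order. At 3L 40001 to 50000, intergenic, H3K9R was at 28.3 and 28.2 RPM, H4K16R at 20.2 and 21.1 RPM and both HWT libraries at 15.9 RPM, 1.78-fold for H3K9R and 1.30-fold for H4K16R (limma adjusted p = 5.30e-06 and 0.00901). This was the highest H4K16R/HWT ratio of 3L. At 3L 60001 to 70000, over Lsp1gamma, which encodes a larval serum storage protein of the fat body, HWT was at 45.8 and 40.6 RPM, H3K9R at 73.0 and 76.0 RPM and H4K16R at 54.7 and 50.6 RPM. The rise was 1.72-fold in H3K9R and 1.22-fold in H4K16R (limma adjusted p = 3.69e-05 and 0.0541). At 3L 70001 to 80000 H3K9R was 1.37-fold of HWT (limma adjusted p = 0.000215) and H4K16R 1.20-fold (limma adjusted p = 0.0307), so that no H4K16R value passed the threshold of 0.001.

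The 4 windows nearest to the telomere did not pass the test in H3K9R (limma adjusted p from 0.664 to 0.928). Window 3L 30001 to 40000, of which 94.2% is unique at 100 bases, had at most 2 reads in any library. Its level, 0.0194 RPM in HWT, was the lowest of all members, so no ratio is given for it. The first 20 kb measured 51.9, 48.4, 49.3, 49.0, 46.5 and 47.6 RPM in window 1 to 10000 across the deeper and shallower HWT, H3K9R and H4K16R libraries in turn, and all lay within a narrow range. These 20 kb are a tandem array, in which 98.6% of 100-base words occur again at a most frequent distance of 458 bases, and 0% and 2.80% of the 100-base words of its windows are unique. Reads of the array cannot be assigned to a place with certainty, so its values may not be local copy number, which was not tested. Window 3L 20001 to 30000, over mthl8, had an average of 8.12 RPM (HWT), 8.29 RPM (H3K9R) and 7.73 RPM (H4K16R).

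**Figure D4:**
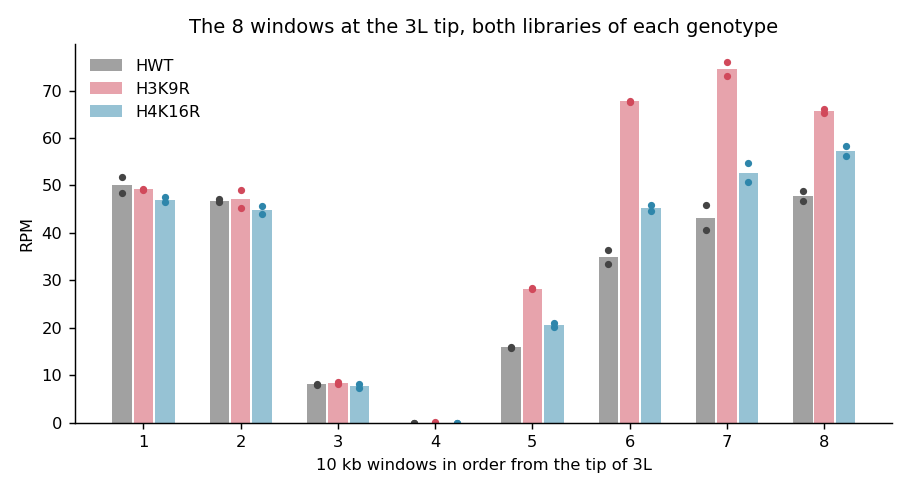
RPM (y axis) in the 8 windows of 10 kb from the tip of 3L (x axis, in order) in HWT (grey), H3K9R (red) and H4K16R (blue), with bars for the mean of the 2 libraries and dots for each library. Windows 5 to 8 are highest in H3K9R, up to 74.5 RPM, and windows 1 to 3 are level between genotypes.

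The fifth member that rose was a block of retrotransposons. The window 3R 7700001 to 7710000, at the end of the Nlg3 stretch, is annotated as transposon over 100% of its length (invader3, gypsy3 and springer) and 8.68% of its 100-base words are unique. The fourth sequence printed above is its middle. It measured 24.8 and 25.5 RPM in HWT, 38.4 and 37.8 RPM in H3K9R, and 23.3 and 21.9 RPM in H4K16R. H3K9R stood apart from the other genotypes, at 1.52-fold of HWT (limma adjusted p = 5.09e-05) and 1.69-fold of H4K16R (limma adjusted p = 1.28e-05).

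A second window of this kind lay in an intron of pyd, the homologue of the junction protein ZO-1. The window 3R 8900001 to 8910000 is 99.9% transposon (297, 1731 and rover). It measured 39.9 and 39.5 RPM in HWT, 52.4 and 49.6 RPM in H3K9R, and 37.2 and 36.0 RPM in H4K16R. At 1.29-fold of HWT it just missed the threshold (limma adjusted p = 0.00101), and it passed against H4K16R at 1.39-fold (limma adjusted p = 0.000201). The next highest of 3R, 3R 10340001 to 10350000, was 69.2% transposon and reached 1.08-fold (limma adjusted p = 0.131). Reads of repeated copies cannot be assigned to a place with certainty, so these values may hold reads of other copies, which was not tested.

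Transposon content went with higher ratios over the remaining windows as well. Outside the 3L tip, H3K9R/HWT had a median of -0.07 (log2) over the 33 windows with more than 10% transposon and of -0.29 over the other 218. None of the 33 was called lower, against 37 of the 218. Among windows at least 30 kb from an end the medians were -0.20 (13 windows) and -0.34 (150 windows), and nearer to an end -0.04 (20 windows) and -0.22 (68 windows). The unique share of 100-base words had a median of 61.3% in the 33 windows and 100% in the 218, so transposon content and mappability cannot be told apart. Over windows with at least 80% unique sequence the member median was -0.29.

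**Figure D5:**
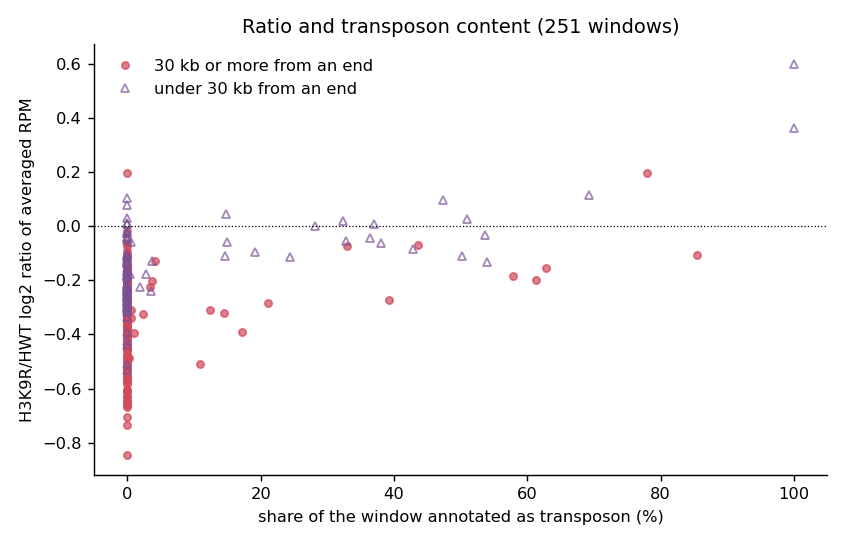
H3K9R/HWT log2 ratio of averaged RPM (y axis) against the share of the window annotated as transposon in percent (x axis) over 251 windows, with windows at least 30 kb from an end of their stretch as filled red circles and nearer ones as open triangles. Both windows at the far right, at 100% and 99.9% transposon, are above 0, and the windows below -0.60 have no transposon.

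The Con stretch showed this within 220 kb of one gene region. Its transposon windows were 3L 4900001 to 4910000 with a diver element (-0.20), 3L 5030001 to 5040000 with roo (-0.18) and 3L 5040001 to 5050000 with Doc and roo (0.20), where the stretch median was -0.39. The last of these measured 47.5 RPM in HWT and 54.4 RPM in H3K9R (limma adjusted p = 0.0447). The CG42637 stretch, 3L 19700001 to 19780000, was a different kind of repeat. Its genes include Gyc76C, a receptor guanylyl cyclase, and Trpml, a mucolipin channel, and 82.6% of its 100-base words occur again within it at a most frequent distance of 31416 bases. The median unique share of its windows was 0.924%, and its median H3K9R/HWT ratio was 0.00, from 48.1 and 44.0 RPM in HWT, 45.0 and 44.3 RPM in H3K9R and 44.1 and 46.4 RPM in H4K16R. Here too reads cannot be assigned to a place with certainty, so this ratio may not be that of local copy number. All 37 windows called lower were fully unique at 100 bases. The median unique share of all 259 members was also 100%, and 34 members were below 80%.

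The members differ from unlisted windows of the chromosome 3 arms in features that the rule did not use. The listed windows of the other arms differ from those same chromosome 3 windows in the same directions. Unlisted windows of 2L, 2R and X were not measured. Exons covered a median of 3.19% of a member window, against 23.9% of the 4768 unlisted windows of the chromosome 3 arms. A share of 25.1% of members overlapped no protein-coding gene (11.3% of unlisted windows), and 48.3% lay for the most part in genes of 50 kb or more (17.0% of unlisted windows). Runs of AAAAA or TTTTT had a median of 7.1 per kb in members and 6.0 per kb in unlisted windows, and GC content was 41.8% and 42.6%. In the listed arm windows of 2L, 2R and X the medians were 6.8% exon, 7.6 runs per kb and 40.6% GC. Of these windows 31.5% overlapped no protein-coding gene and 30.7% lay for the most part in genes of 50 kb or more. Outside the 3L tip, the median H3K9R/HWT log2 ratio was -0.29 over 61 members without a protein-coding gene and -0.26 over 190 with one. It was -0.28 over 125 windows mostly in genes of 50 kb or more and -0.25 over the other 126. Pearson's r of the ratio was -0.22 with the runs per kb and 0.08 with the exon share. With the share in such long genes r was 0.24 on 3L and -0.21 on 3R.

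By single long gene, the median H3K9R/HWT log2 ratio was -0.35 over the 15 windows of Con, with 6 called lower, and -0.35 over the 14 windows of hth, with 4 called. It was -0.31 over 26 windows of bru3, -0.33 over 11 windows of CG34354, -0.28 over 17 windows of SKIP and -0.15 over 12 windows of Gfrl. The neuroligin genes stood at -0.25 (Nlg3, 7 windows) and -0.27 (Nlg1, 5 windows). Immunoglobulin cell surface genes were the family with most windows, 25 windows over 4 of the 25 genes of the family on chromosome 3. Their median was -0.17, with -0.37 for side-VI, -0.24 for beat-IIb, -0.15 for dpr11 and -0.08 for beat-IIa, and 0 windows were called. Of 77 odorant, gustatory and ionotropic receptor genes, Or65a, Or65b and Or65c lay in 1 member window, at 61.6 RPM (HWT), 51.4 RPM (H3K9R) and 65.1 RPM (H4K16R). No member held any of the 14 odorant binding protein, 76 cuticle protein, 24 Osiris, 18 glue and larval gland or 9 Antennapedia complex genes of chromosome 3. Members are only 259 windows beside 4768 unlisted ones of these arms. The share of all chromosome 3 genes that lie in members was not computed, so these counts do not set any family apart.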

How the data were processed

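Salivary gland DNA was sequenced in 6 libraries, 2 for each of 3 genotypes. The authors trimmed paired 100-base reads with Trimmomatic (0.36), aligned them to dm6 (FlyBase release 6.04) with Bowtie2 (2.3.2), kept reads with MAPQ above 10 with SAMtools (1.6), counted them in 10 kb windows with BEDTools coverage (2.25.0) and deposited the averaged RPM of both libraries of a genotype, without SD. By the study's account, the MAPQ filter removes reads that map with low confidence. The CG42637 stretch, with a median unique share of 0.924%, still had median RPM of 45.9 (HWT), 44.0 (H3K9R) and 45.5 (H4K16R). Whether the deposited values passed that filter was not tested. Under-replicated domains were called by the authors in HWT with CNVnator (0.3.3, bins of 1000 bases). The lists hold 2195 rows, 6 of them repeats, and each window was counted once. There were 0 columns of single samples that went unused.

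Members and lists were chosen with earlier results of these data known. The pair of library totals that makes every average a sum of whole reads (tolerance 0.01) was searched for in each genotype and gave whole reads for 100% of averages. The search and the limma step were tested on simulated data. Ratios are log2 ratios of averages without a pseudocount. limma (3.58.1, R 4.3.3) took log2(RPM + 1) of all 6 libraries, in the 2177 listed windows with a read, with Benjamini-Hochberg adjustment and the cutoff of 0.001 given in the study's methods. The study calls the 2 libraries of a genotype biological replicates, and p-values measure the spread between these libraries only. Library medians were compared with exact two-sided permutation tests (scipy 1.17.1). For differences between groups of windows, the tests compared each library's difference of log2 median RPM between the groups. Intervals of counting error cover counting only.

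Windows named were the 3 highest and 3 lowest H3K9R/HWT ratios of each arm with at least 1 RPM in HWT, the highest and lowest H4K16R/HWT ratio, the lowest HWT window, and the longest, lowest and highest stretch. Other stretches, the remaining windows at the 3L tip and those of the Con stretch were named after their values were seen. Genes and transposons came from the Ensembl 115 annotation of dm6. A window's unique share is the share of its 100-base sequences found once in the assembly. Coordinates are 1-based. Alternatives were other pseudocounts, filters, scalings, units, fits and cutoffs, and leaving out each library. Scripts used Python (3.11.15), pandas (2.3.3) and numpy (2.4.6).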

Additional observations from a re-analysis of the deposited data

How the results depend on the processing

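The direction of the H3K9R/HWT and H3K9R/H4K16R medians and of the 3 differences in H3K9R/HWT (between arms, between chromosomes, and between inner and outer windows) held under every alternative run. The difference between chromosomes was taken against 2L, 2R and X pooled, and against 2L alone it had the other sign (0.03). The H3K9R/HWT median of -0.26 became -0.21 as a ratio of sums, -0.23 as a median over stretches, -0.12 scaled to the top 10% of arm windows, -0.21 with pericentric reads left out of the totals and -0.29 over windows at least 80% unique, the last chosen after seeing the data. H3K9R/H4K16R, also -0.26, became -0.21, -0.23, -0.12, -0.21 and -0.28 under the same alternatives. Without the 8 windows of the 3L tip, also chosen after seeing the data, the H3K9R/HWT median was -0.26.

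Counts depended on the fit. The 37 windows called lower in H3K9R against HWT became 74 with a minimum mean of 10 RPM, 78 with arm windows alone, 139 with limma-trend, 13 scaled to the top 10% and 177 at a cutoff of 0.05. The 37 called lower against H4K16R became 83, 86, 140, 10 and 178 in the same order. At a cutoff of 0.05 the 5 called higher in H3K9R against HWT became 8, and H4K16R had 2 lower and 3 higher. limma-trend called 1 window higher in H4K16R.

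Leaving out 1 library at a time moved the medians little: H3K9R/HWT ran from -0.26 to -0.25, H4K16R/HWT from -0.00 to 0.01 and H3K9R/H4K16R from -0.27 to -0.26. The difference of 3L and 3R was -0.02 as a difference of means and ran from -0.07 to -0.03, of chromosome 3 and other arms from -0.10 to -0.09, and of inner and outer windows from -0.19 to -0.16. Counts moved more. Windows called lower in H3K9R against HWT ran from 11 to 30, and against H4K16R from 6 to 27 (7 without the deeper and 6 without the shallower H3K9R library, 8 without the deeper and 10 without the shallower H4K16R library). Windows called higher ran from 4 to 5 against HWT, and from 1 to 5 against H4K16R (1 without either H3K9R library, 2 without either H4K16R library), and H4K16R against HWT stayed at 0 to 0 in both directions. These fits assume that a lone library varies like the others. No paired analysis was possible because the columns are averages that carry no replicate numbers.

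With 2 libraries a genotype, no permutation test over libraries can go below p = 0.33. Relative copy number was measured, and the level of fully replicated DNA outside the lists was not analysed here. Differences under the counting error of 2.84% to 3.59% at the median window were not detectable in a single window. The limit of the calls was higher than that. Libraries of the same genotype differed by a median of 4.13% (H4K16R) to 5.33% (H3K9R). The smallest fall among windows called lower in H3K9R was to 0.761-fold of HWT.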
